A study of Mus musculus with 12 samples.

Results

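Kidneys of mouse embryos at E18.5 that carried the same number of mutant Hox alleles, but with a different cluster made homozygous, were compared. The AkCh kidneys were Hoxa9,10,11-/- HoxC9,10,11+/- and gave 3 libraries, named AkCh_20, AkCh_31 and AkCh_33. The AhCk kidneys were of the reciprocal genotype, Hoxa9,10,11+/- HoxC9,10,11-/-, and also gave 3 libraries, AhCk_38, AhCk_110 and AhCk_115. These 6 libraries were chosen by the genotype code in their column names, out of 12 in the series. The other 6 served here as references only, namely 3 wild type libraries (30, 37 and 55) and 3 AkCk libraries (24, 27 and 29), which the labels give as Hoxa9,10,11-/- HoxC9,10,11-/-. The study's text states that embryos of that genotype had no detectable kidneys and lists its sequenced double mutants with a functional Hoxa11 allele, so the AkCk label is contradicted at Hoxa11, and AkCk is used below only as the name of these libraries. All animals were on a mixed background, and whole kidneys were used. The mutant alleles carry frameshifts in the coding sequence, which in the Hoxc genes come with a small deletion in the first exon. RNA of a mutated allele can therefore still be read and counted, and the level of a Hox gene does not test the genotype label.

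Hox genes encode homeodomain transcription factors that lie in 4 clusters and give cells a position along the body axis. The paralogous genes at the 5′ end of the Hoxa, Hoxc and Hoxd clusters overlap in function, and in the kidney Hox11 proteins act in the metanephric mesenchyme, where they are needed for Gdnf expression and so for growth and branching of the ureteric bud. The comparison of AkCh with AhCk asks whether losing all functional Hoxa9,10,11 alleles with 1 set of functional Hoxc alleles left gives the same kidney transcriptome as the converse.

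RNA was sequenced on an Illumina HiSeq instrument as paired-end reads of 75 bases. Reads counted on genes numbered between 28616877 and 41184985 in the AkCh libraries and between 33106649 and 47067903 in the AhCk libraries. Levels are given below as CPM, counts on a gene per 1000000 counts on all genes, with the library total scaled by trimmed mean of M values (TMM), and a fold change is the log2 of AkCh over AhCk from edgeR's quasi-likelihood test with the same normalisation. A gene was called at a Benjamini-Hochberg adjusted p under 0.05 over all 15856 genes tested. The labels do not state that the libraries of a genotype came from separate embryos, so the p-values measure the spread between these libraries only.

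The genotype comparison coincides with a sequencing run. Every AhCk library is named for run1646, and every AkCh, wild type and AkCk library for run1008. The effects of genotype and run therefore cannot be told apart in any AkCh against AhCk value below, and the levels of the wild type and AkCk libraries are placed beside them because those libraries share the AkCh run. AkCh library 20 stood apart from all others. Its log2 levels correlated with those of AkCh 31 and 33 at r = 0.942 to 0.948, against 0.982 to 0.991 for all other pairs within a genotype. It held 5.23% of its counts in 10 genes, against 3.52% to 4.23% elsewhere, and on the first principal component it lay at -91.7, with the others between -27.9 and 37.7. Results are therefore also given without it. Xist was above 10 CPM in 2 of 3 AkCh libraries (31 and 33), 1 of 3 AhCk libraries (110) and 0 of 3 wild type libraries, so the sexes were not balanced either. Leaving out library 20 widens this imbalance, because both AkCh libraries that remain are above 10 CPM of Xist. The median log2 difference of 5 sex-linked genes was -0.97 with all 6 libraries and -8.89 without library 20. Values without it carry that limit.

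**Figure D1:**
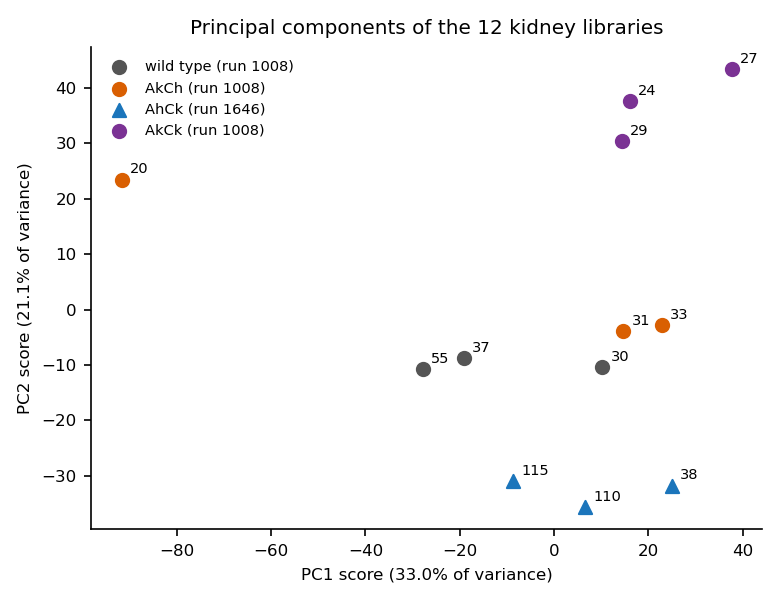
First and second principal components of log2 CPM for the 12 libraries, with the share of variance on each axis (33% and 21.1%); each point is 1 library, labelled with its number and coloured by genotype, with triangles for AhCk and its own run. AkCh library 20 lies at -91.7 on the first component, and the AhCk libraries lie together at -35.6 to -30.9 on the second.

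Of 15856 genes, 28 (0.177%) differed between AkCh and AhCk kidneys, 20 higher in AkCh (0.126% of the genes tested) and 8 lower (0.0505%). At an unadjusted p under 0.05 there were 1585 genes (10.0%), and in 3493 genes (22.0%) the 3 AkCh libraries did not overlap the 3 AhCk libraries. By symbol and annotation, 20 of the 28 were predicted genes or pseudogenes, of which 10 are annotated as pseudogenes, a class that makes up 0.864% of the genes tested. Among the other 8 were the proton pump subunit Atp6v0c, the ribosomal protein gene Rpl29, the protease genes Ctse and Adamts13, and Tmed5. In all 28 the AhCk libraries lay outside the range of all 9 libraries of the other run, against 9.42% of all genes tested. The 3 AkCh libraries are among these 9, and the genes were called on AkCh against AhCk. That count therefore follows in part from the choice of genes. The AkCh libraries lay outside the wild type range in 3 of the 28. No share over all genes is given for that count, so it is not compared with the first. The median absolute log2 difference of the called genes was 5.37 between AkCh and AhCk, and 0.18 between AkCh and wild type over the 27 genes tested there. The genes were called on the first difference, so its larger median follows from that choice. Whichever 1 of the 6 libraries was left out, 8 of the 28 remained called, which were Atp6v0c, Atp6v0c-ps2, Ftl2, Gm14295, Gm14410, Gm15459, Gm8016 and LOC101056094. The number called was 118 without AkCh 20, 12 without AkCh 31, 13 without AkCh 33, 10 without AhCk 38 and 8 without AhCk_110 or AhCk_115.

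Atp6v0c encodes the c subunit of the vacuolar proton pump, the proteolipid ring through which protons cross the membrane, and lies at chr17:24163865-24169678 (mm10). Its level was 53.4, 46.9 and 51.2 CPM in AkCh kidneys and 371, 304 and 305 CPM in AhCk kidneys. The wild type libraries held 46.9, 42.8 and 42.9 CPM and the AkCk libraries 56.3, 60.0 and 54.0 CPM. All 9 libraries of run1008 were thus low and the 3 AhCk libraries were high, and Atp6v0c was 6.47-fold lower in AkCh (log2 -2.69, SE 0.14, 95% confidence interval -3.03 to -2.36, edgeR adjusted p = 0.00227). Its processed copy Atp6v0c-ps2 on chromosome 6 went the other way. Counts there were 67.4, 61.1 and 75.4 CPM in AkCh and 0.94, 0.778 and 0.705 CPM in AhCk, with 56.6 to 64.0 CPM in wild type (log2 6.40, SE 0.18, interval 5.97 to 6.83, edgeR adjusted p = 0.000178). Summed over gene and copy, the AkCh libraries held 121, 108 and 127 CPM and the AhCk libraries 372, 305 and 306 CPM. The sum was 99.4 to 111 CPM in wild type kidneys, so it too set AhCk apart from the rest.

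The sequences of the pair are shown because a read is counted to one row or the other by its sequence. The GENCODE M21 model of Atp6v0c spans chr17:24163866-24169702 on the minus strand, and the copy chr6:37806086-37806550 on the plus strand. Over 465 aligned bases the coding sequence of Atp6v0c and the copy differ at 1 base, an identity of 99.78%. The difference is T111C, counted from 1 at the coding start. The first 150 bases of each, 5′ to 3′, with the differing base in capitals, share 36 of 76 windows of 75 bases.
Atp6v0c: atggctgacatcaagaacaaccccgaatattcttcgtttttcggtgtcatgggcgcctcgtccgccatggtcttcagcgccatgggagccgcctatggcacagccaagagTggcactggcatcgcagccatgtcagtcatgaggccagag
Atp6v0c-ps2: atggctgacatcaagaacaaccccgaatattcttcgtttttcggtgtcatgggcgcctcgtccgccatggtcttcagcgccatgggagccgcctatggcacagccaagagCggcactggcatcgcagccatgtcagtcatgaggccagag
The authors state that reads mapping to more than 1 position were removed. The copy still held 61.1 to 75.4 CPM in AkCh, although 316 of its 391 windows are shared with Atp6v0c. How reads in shared windows were assigned was not tested.

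Shared sequence was common among the called genes. Of the 24 called genes matched to transcripts, 20 shared at least 1 window of 75 bases with another gene, against 26.8% of the 14965 tested genes matched. At least 10% of the windows were shared in 16 of the 24, against 6.93% of the tested genes. In 4 pairs both genes of the pair were called, and all 4 pairs moved in opposite directions. Atp6v0c and its copy shared 316 windows, the predicted genes Gm14410 and Gm14295 shared 210, 2610005L07Rik and Gm21092 shared 96, and Gm14295 and Gm14399 shared 15. Gm14295 held 2.09, 1.25 and 1.45 CPM in AkCh and 31.3, 44.3 and 45.4 CPM in AhCk, whereas Gm14410 held 43.7, 34.0 and 27.5 CPM in AkCh and under 1 CPM in every AhCk library. The part of read assignment in these differences was not tested.

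The largest ratios were at predicted genes and pseudogenes. Gm13841 had 7233 counts in the AkCh libraries together and 3 in the AhCk libraries, a depth-scaled ratio of 3004 with an exact counting interval of 1027 to 14569. Library 20 held 147 CPM of it against 46.3 and 39.8 CPM in AkCh 31 and 33, and without library 20 the ratio was 1888, with an interval of 646 to 9159.9. No read was counted in any AhCk library on 6330411D24Rik (4.17, 3.18 and 3.43 CPM in AkCh, at least 50.9-fold higher) or on Gm18683 (3.71, 2.77 and 3.38 CPM, at least 46.6-fold higher), neither of which shared a window with another gene, both bounds set at 3 counts per library. Intervals and bounds of this kind cover counting error only. Copies of other abundant genes were among them, while the parent gene was not called. Gm15459 stood at 257, 316 and 312 CPM in AkCh and 3.44, 2.89 and 2.18 CPM in AhCk, and Hspa8, the constitutive heat shock cognate, at 3315, 1893 and 1862 CPM against 2416, 2404 and 2414 CPM (log2 -0.03). Of the 1867 windows of Gm15459, 1643 occur in other genes, Hspa8 being the closest. Ftl2, a ferritin light chain copy, stood at 11.6, 12.1 and 16.1 CPM in AkCh and at 0.0207 to 0.0409 CPM in AhCk, with a log2 difference of -0.16 for Ftl1, the ferritin light chain that stores iron.

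**Figure D2:**
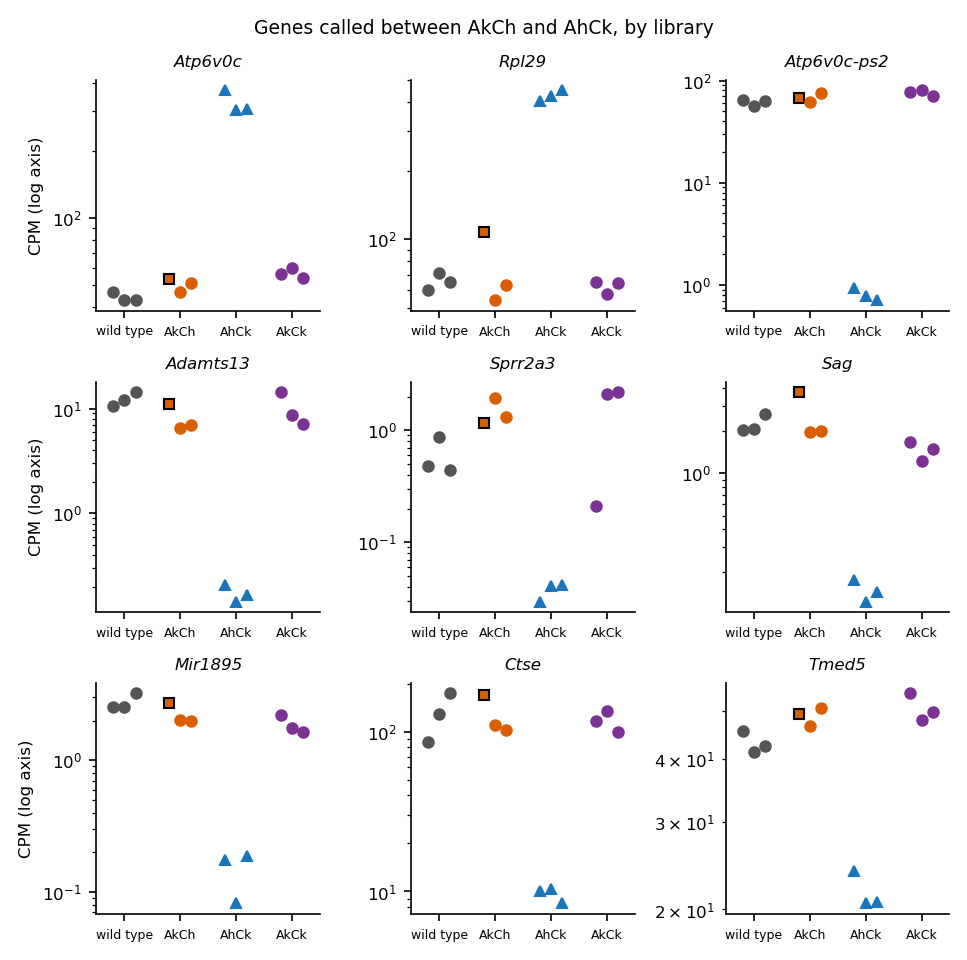
CPM on a log axis in each of the 12 libraries, for 9 called genes, with a point for each library, triangles for AhCk and a black-outlined square for AkCh library 20. In every gene shown the AhCk points lie outside all 9 points of the other run, as for Atp6v0c at 304 to 371 CPM against 42.8 to 60.0 CPM.

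Rpl29, a protein of the large ribosomal subunit, was the single member of the gene lists below that was called. It held 107, 53.9 and 62.8 CPM in AkCh kidneys and 404, 424 and 450 CPM in AhCk kidneys, with 59.8 to 71.3 CPM in wild type and 57.4 to 65.2 CPM in AkCk. It was 5.70-fold lower in AkCh (log2 -2.51, SE 0.28, edgeR adjusted p = 0.0438). Of its 1339 windows, 374 occur in other genes. Of the fits that left out 1 library, the one without AkCh 20 kept the call (log2 -2.88), and those without any of the other 5 lost it (log2 -2.54 to -2.32).

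Ctse encodes cathepsin E, an aspartic protease of the endosomal system, and shared no window with another gene. Its level was 170, 110 and 103 CPM in AkCh kidneys against 10.0, 10.3 and 8.42 CPM in AhCk kidneys, a 13.3-fold difference (log2 3.74, SE 0.25, interval 3.15 to 4.32, edgeR adjusted p = 0.00406). Wild type kidneys held 87.0, 129 and 174 CPM and AkCk kidneys 117, 134 and 100 CPM, so that the AkCh libraries lay within the spread of their own run. The log2 difference of AkCh from wild type was -0.03. The call was lost when AhCk_38, AhCk_110 or AhCk_115 was left out, at log2 values of 3.77, 3.79 and 3.64.

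Adamts13, the protease that cleaves von Willebrand factor in plasma, was at 11.1, 6.49 and 7.04 CPM in AkCh and 0.206, 0.143 and 0.166 CPM in AhCk (log2 5.57, SE 0.34, edgeR adjusted p = 0.00306). Sag, which encodes the arrestin of photoreceptors, was at 3.75, 1.95 and 1.98 CPM against 0.176, 0.123 and 0.145 CPM (log2 4.09, SE 0.41, adjusted p = 0.0257). Wild type kidneys held 10.6, 11.9 and 14.3 CPM of Adamts13 and 2.02, 2.05 and 2.62 CPM of Sag. In both genes the AhCk libraries were low and every other genotype high. Adamts13 lost its call without AhCk_110 (log2 5.45) or AhCk_115 (log2 5.54). The row Mir1895, at chr3:134240505-134240583, followed the same order with 2.70, 2.03 and 2.00 CPM in AkCh and 0.176, 0.0818 and 0.187 CPM in AhCk (log2 3.91, SE 0.38, adjusted p = 0.0228). This row counts reads over the microRNA hairpin in RNA-seq libraries and is no measure of the mature microRNA, and all 5 of its windows of 75 bases occur in Gm26691. The mature sequence is printed to identify the row (RefSeq, GRCm38.p6, chr3:134240515-134240536, minus strand), with the seed, bases 2 to 8, in capitals.
mmu-miR-1895: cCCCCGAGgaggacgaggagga
Sag and Mir1895 remained called without AkCh 20 (log2 3.72 and 3.75), and lost the call without any other of the 6 libraries, with log2 values of 3.97 to 4.26 and of 3.60 to 4.13.

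In 3 called genes the AkCh and AhCk libraries lay on opposite sides of the wild type range. Tmed5, of the p24 family of cargo receptors between endoplasmic reticulum and Golgi, was at 49.2, 46.6 and 50.7 CPM in AkCh, 23.9, 20.6 and 20.7 CPM in AhCk and 41.3 to 45.6 CPM in wild type. It was called with the smallest difference of the 28 (log2 1.17, SE 0.11, interval 0.90 to 1.44, edgeR adjusted p = 0.022). AkCh and wild type were close beside the distance to AhCk. Sprr2a3, a small proline-rich protein of the cornified envelope of epithelia, was at 1.16, 1.95 and 1.32 CPM in AkCh and 0.0294, 0.0409 and 0.0415 CPM in AhCk (log2 5.17, SE 0.42, adjusted p = 0.012). Those AhCk levels are 1, 2 and 2 counts, and 1333 of the gene's 2808 windows are shared with other genes, Sprr2a1 being the closest. Within run1008, Sprr2a3 stood at 0.477, 0.876 and 0.445 CPM in wild type kidneys and at 0.209, 2.09 and 2.20 CPM in AkCk kidneys, which span the AkCh and wild type levels, and the difference of AkCh from wild type, log2 1.30 at an unadjusted p of 0.0124 in edgeR, did not pass the adjusted threshold. The predicted gene 2610005L07Rik was the third of these, at 4.13, 6.56 and 7.36 CPM in AkCh, 35.1, 44.4 and 25.9 CPM in AhCk and 7.47 to 8.46 CPM in wild type (log2 -2.54, SE 0.29, adjusted p = 0.0447). All 3 were called without AkCh 20 (log2 1.16, 5.32 and -2.34) and lost the call without any other of the 6 libraries, with log2 values of 1.13 to 1.24 for Tmed5, 4.92 to 5.26 for Sprr2a3 and -2.73 to -2.35 for 2610005L07Rik.

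None of the 9 genes of the paralogous groups 9, 10 and 11 in the Hoxa, Hoxc and Hoxd clusters was called between the genotypes, by edgeR under any setting tried or by DESeq2. Hoxa9, homozygous mutant in AkCh and heterozygous in AhCk, stood at 40.8, 26.7 and 27.1 CPM in AkCh and 29.6, 32.0 and 30.9 CPM in AhCk (log2 0.03, interval -0.43 to 0.49). Hoxa10 stood at 153, 103 and 107 CPM against 113, 104 and 114 CPM (log2 0.14, interval -0.29 to 0.57). Hoxa11 stood at 43.2, 51.8 and 52.2 CPM against 53.8, 61.5 and 52.8 CPM, with the AkCh libraries below the AhCk libraries (log2 -0.19, interval -0.48 to 0.09). For the 3 Hoxa genes the intervals thus leave room for a difference of at most 0.57 on the log2 scale in either direction.

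The Hoxc genes, homozygous mutant in AhCk, had wider intervals, and AkCh library 20 stood above the other two AkCh libraries. Hoxc9 was at 32.7, 11.7 and 12.6 CPM in AkCh and 9.16, 11.0 and 13.9 CPM in AhCk (log2 0.74, interval -0.30 to 1.79, and 0.09 without library 20). Hoxc10 was at 121, 45.3 and 41.6 CPM against 32.1, 36.6 and 51.6 CPM (log2 0.79, interval -0.29 to 1.87, and 0.11 without library 20). Hoxc11 was the lowest in counts, at 2.94, 1.57 and 1.32 CPM against 1.12, 1.49 and 2.01 CPM (log2 0.32, interval -0.63 to 1.27). In each of the 3 genes AkCh 31 and 33 lay within the AhCk range. The Hoxd genes, wild type in every group, showed the same excess in library 20, with Hoxd10 at 99.0, 45 and 44.2 CPM in AkCh and 45, 47.6 and 59.8 CPM in AhCk (log2 0.31, interval -0.52 to 1.13, and -0.19 without library 20). Hoxd9 differed by 0.11 (interval -0.46 to 0.68) and Hoxd11 by -0.13 (interval -0.65 to 0.39). The sign turned when library 20 was left out for Hoxd9 (-0.20) and Hoxd10, and likewise for Hoxa9 (-0.21), Hoxa10 (-0.07) and Hoxc11 (-0.11).

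Of the other 30 genes of the Hox clusters, 24 were tested, 0 were called by edgeR on the 6 libraries or by DESeq2 and 2 were at an unadjusted p under 0.05 (8.33%, against 10.0% of all genes). Hoxa6 was at 1.70, 1.95 and 2.37 CPM in AkCh and 2.73, 3.72 and 3.94 CPM in AhCk (log2 -0.79). Hoxd4 was at 8.34, 5.55 and 5.54 CPM in AkCh and 11.0, 10.1 and 10.4 CPM in AhCk (log2 -0.69, adjusted p = 0.428). Without library 20 Hoxd4 was called (log2 -0.92, edgeR adjusted p = 0.0371). The reference libraries held 7.72, 9.22 and 10.9 CPM in wild type and 2.32, 2.27 and 3.08 CPM in AkCk, so that AkCh 31 and 33 lay between these groups of their own run.

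**Figure D3:**
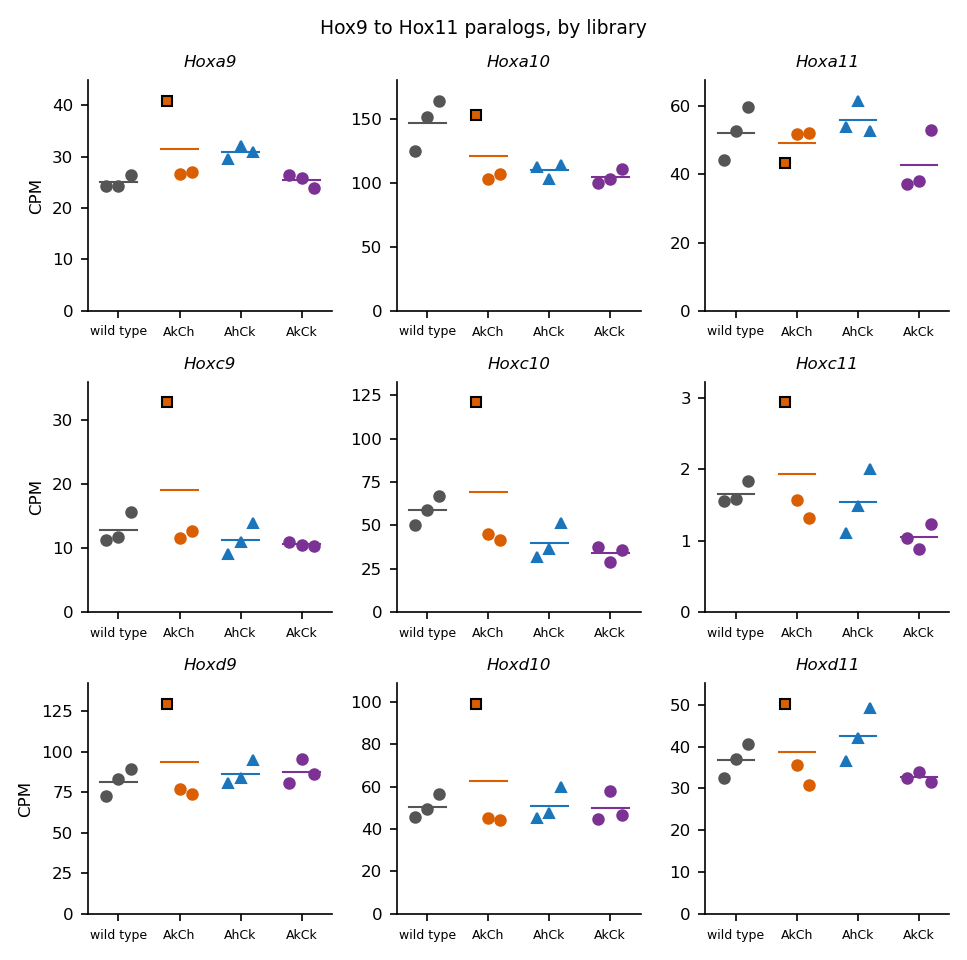
CPM in each of the 12 libraries for the 9 genes of paralogous groups 9, 10 and 11, 1 panel a gene, with each axis starting at 0, points for libraries and lines for group means. AkCh library 20, outlined in black, is the highest of all points for Hoxc9 (32.7 CPM) and Hoxc10 (121 CPM), and the other AkCh points of the Hoxc genes lie within the AhCk range.

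The label of whole kidney was checked against 12 lists of genes that mark its cell populations, and members of each were expressed. Between the genotypes 0 of the 171 members tested were called by edgeR on the 6 libraries, and 9 were at an unadjusted p under 0.05 (5.26%, against 10.0% of all genes). DESeq2 called 2 members, Slc4a9 and Ehd3, and edgeR with all 12 libraries in the fit called Ehd3, beside 1.82% of all genes called by DESeq2 and 1.91% by that fit. In 5 of the 12 lists the median difference changed sign when AkCh library 20 was left out. In bulk kidney, fewer cells of a type and less RNA per cell cannot be told apart.

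Among progenitors, the 16 cap mesenchyme genes had a median log2 difference of 0.23, and -0.05 without library 20, beside a median of 0.01 over all genes. Six2, which keeps nephron progenitors in an undifferentiated state, was at 164, 76.7 and 69.7 CPM in AkCh and 62.5, 86.0 and 79.8 CPM in AhCk (log2 0.45, interval -0.39 to 1.29). Gdnf, the ligand secreted by the mesenchyme, was at 65.6, 31.9 and 26.7 CPM against 24.7, 31.5 and 33.1 CPM. Its receptor on the ureteric bud, Ret, was at 42.0, 29.9 and 28.6 CPM against 24, 29.3 and 27.4 CPM. For Six2 and Gdnf library 20 was the highest of the 6 and the other AkCh libraries lay within the AhCk range. The 12 ureteric bud tip genes had a median of 0.28 and, without library 20, of -0.05.

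Differentiated segments moved the other way in library 20. The 24 proximal tubule genes together held 1261, 5889 and 8627 CPM in AkCh and 7684, 4150.1 and 3990 CPM in AhCk, with 2736 to 7369 CPM in wild type. All 24 were lower in AkCh 20 than in both other AkCh libraries, by a median log2 of -2.64, yet the median difference between the genotypes was 0.01, and 0.44 without library 20. Lrp2, the megalin receptor that takes up filtered protein, was at 179, 969 and 958 CPM in AkCh and 804, 787 and 560 CPM in AhCk (log2 -0.04, interval -1.43 to 1.36). Slc34a1, the phosphate transporter of the brush border, was at 83.0, 580.0 and 1068 CPM against 1087, 470.1 and 419.8 CPM. The spread within each genotype was wider than the distance between them. Nphs1, the nephrin of the podocyte slit diaphragm, was at 21.9, 83.1 and 66.7 CPM against 101, 88.2 and 82.1 CPM (log2 -0.67, interval -1.73 to 0.40), and the 12 podocyte genes had a median of -0.21, or -0.09 without library 20.

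In the collecting system and distal nephron, no gene was called by edgeR, and Slc4a9 was called by DESeq2. Slc4a9, a bicarbonate transporter of intercalated cells, was at 10.0, 11.4 and 11.0 CPM in AkCh and 16.3, 18.9 and 14.5 CPM in AhCk (log2 -0.62, edgeR adjusted p = 0.332). Calb1, the calcium-binding calbindin, was at 179, 212 and 172 CPM against 147, 112 and 75.7 CPM (log2 0.75, adjusted p = 0.447). The genotypes did not overlap in either gene. The 14 principal cell genes had a median of -0.02 and the 10 intercalated cell genes one of -0.04, and without library 20 both turned, to 0.01 and 0.14. The 9 genes of the distal and connecting tubule had a median of 0.07, and 0.27 without library 20, with 2 of the 9 at an unadjusted p under 0.05, both higher in AkCh (22.2%, against 10.0% of all genes).

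The 24 extracellular matrix genes had a median of -0.24, and -0.20 without library 20, with 17 of the 24 negative and no call by edgeR or DESeq2. The 15 regulators of renal stroma were 7 positive and 8 negative, with a median of -0.04, and -0.13 without library 20. Col1a1, a chain of fibrillar collagen I, was at 1427, 1288 and 814 CPM in AkCh and 1043, 1723 and 1922 CPM in AhCk (log2 -0.41, interval -1.15 to 0.33). Wild type kidneys held 805, 826 and 856 CPM and AkCk kidneys 2888, 3179 and 3079 CPM, so both reciprocal genotypes lay below AkCk. Of the vascular genes, the 10 endothelial markers had a median of -0.11, or -0.04 without library 20, and Ehd3, which marks glomerular endothelium, was at 40.1, 41.8 and 48.4 CPM against 55.8, 64.7 and 66.1 CPM (log2 -0.52). Lyve1, a hyaluronan receptor of lymphatic endothelium and some macrophages, was at 18.6, 26.8 and 25.1 CPM against 16.5, 13.5 and 14.7 CPM, with the AkCh libraries higher (log2 0.65). The lists did not share this direction, with 4 positive and 6 negative endothelial genes and 4 positive and 5 negative macrophage genes. The 9 macrophage genes tested had a median of -0.0006, and -0.18 without library 20. All 6 erythroid genes had a negative difference, with a median of -1.33, and -1.93 without library 20. Of these, 0 were called by edgeR or DESeq2, and 0 were at an unadjusted p under 0.05. Their summed level varied between libraries from 556 to 2007 CPM in AkCh and from 522 to 5839 CPM in AhCk, and the part of residual blood was not tested.

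**Figure D4:**
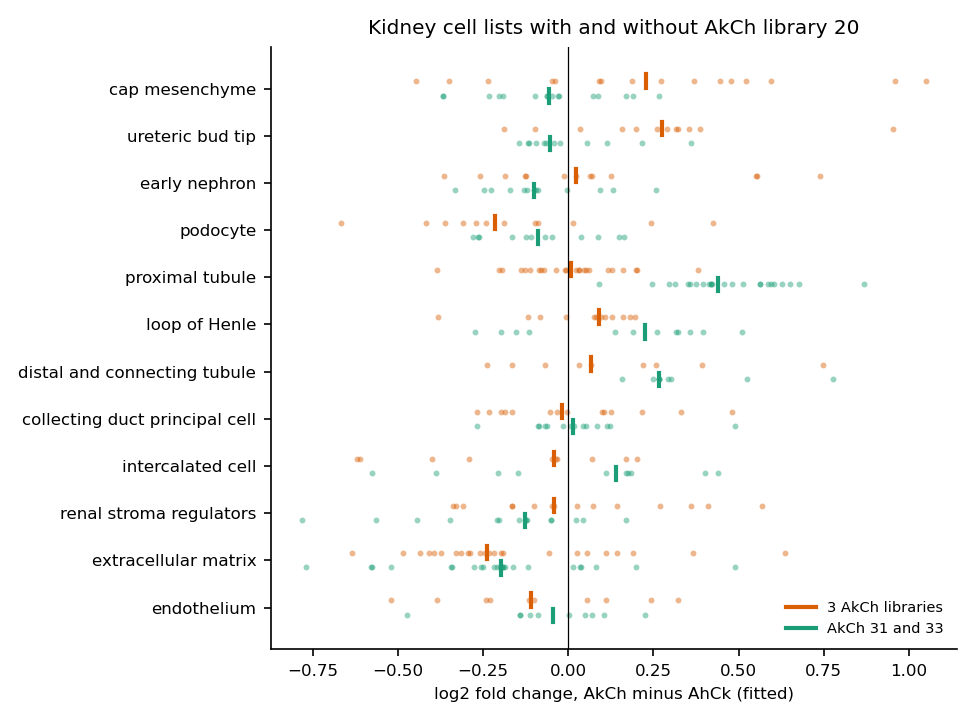
Log2 difference of AkCh over AhCk for each tested gene of the 12 kidney lists, 1 row a list, with dots for genes and bars for medians, orange for all 3 AkCh libraries and green for AkCh 31 and 33 alone. The proximal tubule median moves from 0.01 to 0.44 and the cap mesenchyme median from 0.23 to -0.05 when library 20 is left out.

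Of 82 cytosolic ribosomal protein genes tested, 80 had a positive difference, with a median log2 of 0.51, and Rpl29 was the one called. Together they held 114337, 56571 and 55813 CPM in AkCh and 51848, 54438 and 59366 CPM in AhCk, with 57317 to 70135 CPM in wild type. For the ribosomal proteins library 20 alone was high, and the median without it was 0.04. The 74 nuclear genes of oxidative phosphorylation, whose products form the respiratory chain and ATP synthase, had 70 positive differences and a median of 0.37, or 0.14 without library 20. Their summed level was 18542, 15431 and 16975 CPM in AkCh and 14998, 13755 and 13764 CPM in AhCk, so that every AkCh library lay above every AhCk library. Wild type kidneys, at 14873 to 16137 CPM, overlapped both, and AkCk kidneys held 16223 to 17322 CPM. None of the 74 was called by edgeR or DESeq2, and 13 were at an unadjusted p under 0.05, all higher in AkCh (17.6%, against 10.0% of all genes). In 31 of them the genotypes did not overlap (41.9%, against 22.0% of all genes). The 17 cell cycle genes had a median of 0.21, and -0.03 without library 20.

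Of 15 genes whose RNA stays in the nucleus or retains introns, 0 were called by edgeR on the 6 libraries and by DESeq2, and 6 were at an unadjusted p under 0.05, all lower in AkCh (40%, against 10.0% of all genes), with a median log2 of -0.26, and -0.43 without library 20. In 7 the genotypes did not overlap (46.7%, against 22.0%). The summed level of the 15 was 1456, 1092 and 1165 CPM in AkCh and 1245, 1254 and 1451 CPM in AhCk, with 1307 to 1595 CPM in wild type and 742 to 792 CPM in AkCk. Library 20 was thus above every AhCk library, and AkCh 31 and 33 lay between the wild type and AkCk libraries of their own run. The median difference from wild type was -0.40 for AkCh and -0.05 for AhCk. Neat1, the scaffold RNA of paraspeckles, was at 22.6, 10.3 and 13.8 CPM in AkCh and 31.6, 23.6 and 26.6 CPM in AhCk, with 18.4 to 33.9 CPM in wild type (log2 -0.81, adjusted p = 0.474). Ccnl2, a cyclin of splicing speckles, was at 62.6, 47.6 and 53.6 CPM against 72.9, 72.0 and 77.9 CPM, with 64.8 to 83.5 CPM in wild type and 28.0 to 34.7 CPM in AkCk, and was called without library 20 (log2 -0.56, edgeR adjusted p = 0.0463, against -0.44 and no call with all 6). In both genes every AkCh library was below every AhCk library. The share of nuclear RNA was not measured, and its part in these values was not tested.

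Of 6 genes tested in the imprinted Dlk1-Dio3 domain, 5 had a negative difference, with a median of -0.36, and -0.74 without library 20. Dlk1, a transmembrane protein of the Notch ligand family expressed from the paternal allele, was at 218, 74.8 and 54.1 CPM in AkCh and 81.8, 99.7 and 149 CPM in AhCk, with 39.1 to 43.8 CPM in wild type and 300 to 448 CPM in AkCk. All 6 libraries of the reciprocal genotypes lay above wild type and below AkCk, and they overlapped each other through AkCh library 20 (log2 0.07, interval -1.23 to 1.38). AkCh 31 and 33 lay below every AhCk library, and the difference without library 20 was -0.78. Meg3, the maternally expressed long non-coding RNA of the same domain, was at 9.69, 6.78 and 7.33 CPM in AkCh and 20.8, 20.1 and 25.6 CPM in AhCk. Wild type and AkCk kidneys, at 7.59 to 10.4 and 4.56 to 6.24 CPM, were on the AkCh side. The difference missed the threshold with all 6 libraries (log2 -1.48, SE 0.20, edgeR adjusted p = 0.0691) and passed it without library 20 (log2 -1.66, adjusted p = 0.00972). Among 18 Notch pathway genes edgeR called 0 on the 6 libraries, and 2 were at an unadjusted p under 0.05 (11.1%, against 10.0% of all genes). These 2, Notch4 and Jag2, were called by DESeq2 and by edgeR with all 12 libraries in the fit, where 1.82% and 1.91% of all genes were called. Notch4, the receptor of endothelium, was at 33.5, 35.8 and 35.0 CPM against 45, 47.5 and 47.1 CPM (log2 -0.42), and the ligand gene Jag2 differed by -0.50.

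With all 12 libraries in the fit, which share 1 estimate of the spread, 310 of 16260 genes (1.91%) were called, 227 higher (1.40%) and 83 lower (0.510%), and all 28 were among them. Leaving out AkCh library 20 raised the number of called genes from 28 to 118 of 16052 tested (0.735%), 79 higher in AkCh (0.492%) and 39 lower (0.243%), and all 28 were among them. The 118 were called on AkCh 31 and 33 against AhCk, and both of those AkCh libraries belong to run1008, so the next count follows in part from that choice. In 102 of the 118 the AhCk libraries lay outside the range of all 9 libraries of run1008 (9.42% of all genes in the main test), and in 16 they did not. Of those 16, 4 are named here, chosen after their values were seen. Slc4a3, an anion exchanger, was at 13.3, 10.5 and 12.5 CPM in AkCh, 19.2 to 20.6 CPM in AhCk, 16.2 to 19.6 CPM in wild type and 5.66 to 6.76 CPM in AkCk (log2 -0.80, edgeR adjusted p = 0.0482 without library 20). The AkCh level lay nearer to AkCk than the AhCk level did. Lbr, the lamin B receptor of the inner nuclear membrane, was higher in AkCh, at 112 to 140 CPM against 63.7, 72.8 and 72.4 CPM, with 105 to 118 CPM in wild type and 55.8 to 108 CPM in AkCk, which spanned the AhCk levels (log2 0.70, adjusted p = 0.0234). Gbe1, the glycogen branching enzyme, was at 17.3 CPM in library 20 but 48.8 and 69.0 CPM in AkCh 31 and 33, against 21.4 to 27 CPM in AhCk and 33.6 to 43.6 CPM in wild type (log2 1.26, adjusted p = 0.0359). Actn3, the alpha-actinin of fast muscle fibres, was at 11.9 CPM in library 20 and at 0.34 and 0.45 CPM in AkCh 31 and 33, against 3.77 to 6.49 CPM in AhCk and 3.74 to 5.52 CPM in wild type (log2 -3.57, adjusted p = 0.0177). For Gbe1 and Actn3, library 20 lay on the other side of AhCk. With all 6 libraries none of these 4 genes was called.

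Genes near each cluster were compared because the genotypes differ in which targeted chromosome is homozygous. Within 5 Mb of the Hoxa cluster (chr6:52155367-52260880) 89 genes were tested, 0 were called by edgeR on the 6 libraries, 9 were at an unadjusted p under 0.05 (10.1%, against 10.0% of all genes) and 17 did not overlap between the genotypes (19.1%, against 22.0% of all genes). Within 5 Mb of the Hoxc cluster (chr15:102921131-103036856) 133 genes were tested, 0 were called, 17 were at an unadjusted p under 0.05 (12.8%) and 31 did not overlap (23.3%). DESeq2 called 5 genes in these stretches together and edgeR with all 12 libraries in the fit called 2, against 1.82% and 1.91% of all genes under those fits. Within 20 Mb, with 204 genes tested around Hoxa and 244 around Hoxc, the 1 called gene was Atp6v0c-ps2, 14.3 Mb from the Hoxa cluster. Over all genes 0.177% were called.

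The Mettl7a genes, which encode methyltransferase-like membrane proteins, lie 2.56 Mb from the Hoxc cluster for Mettl7a2. Mettl7a2 was at 1.24, 3.16 and 3.64 CPM in AkCh and 9.63, 6.04 and 4.75 CPM in AhCk, a 2.53-fold difference that was not called (log2 -1.34, interval -2.42 to -0.26, edgeR adjusted p = 0.449). Wild type kidneys held 0.0231 to 0.0265 CPM and AkCk kidneys 12.5, 19.9 and 2.97 CPM. Every library with mutant Hoxc alleles, heterozygous or homozygous, was thus above every wild type library, and the heterozygous AkCh libraries were below those of AhCk. The wild type level is 1 count in each library, and the ratio of AkCh to wild type within run1008 was 116, with an exact counting interval of 39.2 to 565. This difference had an edgeR adjusted p of 0.220, and it was called without library 20 (adjusted p = 0.000904), where the ratio was 137. The row AB099516 overlaps Mettl7a2 and had nearly the same values, so the pair is not independent. Galnt6, which starts the O-glycosylation of mucin-type proteins and lies 2.19 Mb from the cluster, was at 1.31, 1.71 and 1.5 CPM in AkCh and 2.73, 2.74 and 2.53 CPM in AhCk, with 1.04 to 1.49 CPM in wild type and 2.25 to 3.80 CPM in AkCk (log2 -0.82, edgeR adjusted p = 0.346). It was 1 of 3 genes among the 133 in which both groups with homozygous Hoxc mutation lay apart from AkCh and wild type (2.26%, against 2.64% of all genes). The other two were Ddn and Acvrl1, the latter a receptor of the TGF-beta family in endothelium, at 44.8, 50.2 and 47.7 CPM against 57.2, 53.9 and 57.1 CPM.

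**Figure D5:**
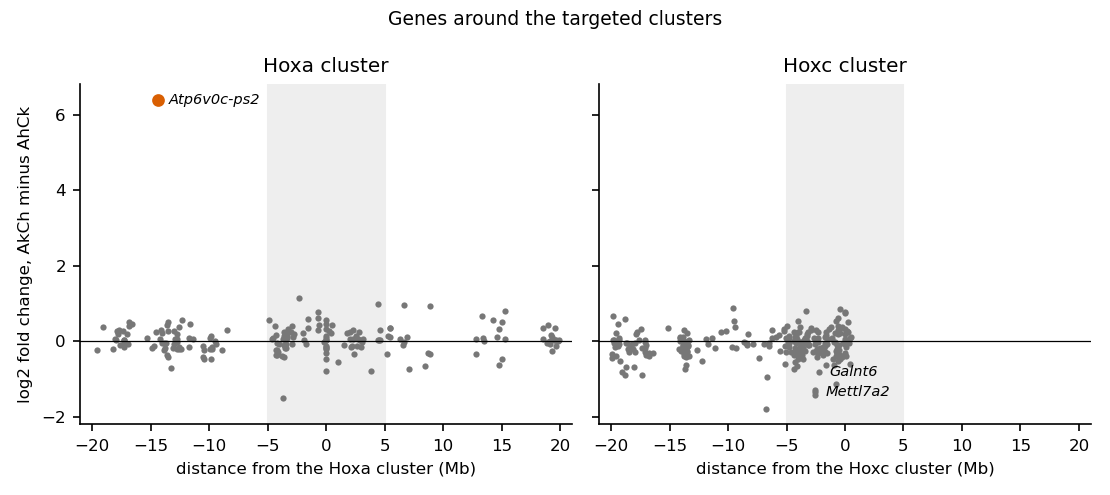
Log2 difference of AkCh over AhCk for each tested gene against its distance in megabases from the Hoxa cluster and from the Hoxc cluster; grey points are genes, orange points are called genes and the shaded band is 5 Mb to each side. No gene in either band was called by edgeR on the 6 libraries, and the orange point on the Hoxa panel is Atp6v0c-ps2 (log2 6.40).

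Comparisons inside run1008 bear on AkCh without the change of run. Between AkCh and wild type 0 of 15789 genes were called by edgeR, with 360 at an unadjusted p under 0.05 and 18 called by DESeq2. Without library 20 edgeR called 8, which were the overlapping rows Mettl7a2 and AB099516, Actn3, and Xist with 4 genes of the Y chromosome. Between AkCk and AkCh 0 of 15764 genes were called by edgeR, with 1787 at an unadjusted p under 0.05 and 487 called by DESeq2, and 687 were called by edgeR without library 20.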

How the data were processed

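Whole-kidney RNA-seq of 3 AkCh and 3 AhCk libraries was analysed, with 3 wild type and 3 AkCk libraries as references. The authors aligned reads to mm10, removed reads that mapped to more than 1 position and quantified genes in Strand NGS with UCSC gene models; the aligner's version is not given in the sources used here. The authors deposited raw estimated counts, with fractions, for 36186 genes, which were rounded to whole counts here. The deposited log2 values were normalised between libraries and centred on each gene's median over the 12 libraries by the authors, and served only as an alternative tested with limma. Every per-sample column was used, and 92 symbols are listed more than once.

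Groups came from the labels. The main test was edgeR 4.0.16 (R 4.3.3; glmQLFit and glmQLFTest, TMM) on the 6 libraries, with genes of low count removed by filterByExpr (minimum count 10, minimum total 15). DESeq2 1.42.0, limma 3.58.1, other normalisations, no filter, a GC and length correction, a term for Xist, a fit to all 12 libraries and leaving out each library were the alternatives. Depth ran from 28616877 to 47067903 counts, which sets the precision of low values. The scripts were tested on simulated counts. Positions (33006 genes) and sequences came from RefSeq GRCm38.p6 and GENCODE M21, both the mm10 assembly. By rule, the genes named were Hoxa9 to 11, Hoxc9 to 11 and Hoxd9 to 11, members of the gene lists, the 12 largest calls in each direction with a mean of at least 50 counts in the higher group and no overlap, called genes within 5 Mb of a cluster, and at most 4 examples of predicted genes or pseudogenes; others were chosen after their values were seen. The members and lists were chosen with earlier results of these data known.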

Additional observations from a re-analysis of the deposited data

Results flagged for a closer look

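In 3 genes every AkCh library lay on one side of the wild type range and every AhCk library on the other, and the direct contrast of AkCh with AhCk is the test of that difference. These were 2610005L07Rik with a log2 difference of -2.54, Sprr2a3 with 5.17 and Tmed5 with 1.17. In each of them AkCh shares its sequencing run with wild type and AhCk does not, so genotype and run cannot be told apart.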

How the results depend on the processing

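The counts of called genes depended on the setting more than the directions did. Between AkCh and AhCk edgeR called 28 of 15856 genes, DESeq2 316 of 17374 with an adjusted p, the fit with all 12 libraries 310 of 16260, limma on the deposited log2 values 47 of 15856, and a GC content and exon length correction 9 of 15018, which left 11 of the 28 testable. That correction kept 7 of the 11 as calls. Limma kept 27 of the 28, and a term for Xist kept 26. There were 8 to 118 when 1 library was left out (15998 to 16105 tested), the highest without AkCh 20. RLE factors, library size alone, no filter and a term for Xist gave 28, 39, 39 and 32. Of 500 members of the gene lists tested 1 was called, and 2 with library size only, 7 with DESeq2, 5 with all 12 libraries and 0 to 4 when 1 library was left out, beside 1.82% of all genes by DESeq2 and 1.91% with all 12 libraries. Within 5 Mb of the clusters 0 genes were called, 5 by DESeq2 and 2 with all 12 libraries, and within 20 Mb (204 genes tested around Hoxa and 244 around Hoxc) 1 gene, 9 by DESeq2, 6 with all 12 libraries and 0 after the GC and length correction. The shares of all genes called were 0.177% by edgeR on the 6 libraries, 1.82% by DESeq2 and 1.91% with all 12 libraries. AkCh against wild type gave 0 calls by edgeR, 18 by DESeq2 and 8 without AkCh replicate 20, and AkCk against AkCh gave 0, 487 and 687.

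Directions turned for genes that were not called. Hoxa9 was -0.08 with library size only, -0.01 with limma and -0.21 to 0.14 when 1 library was left out. Hoxd9 was -0.01 with library size only and Hoxd10 -0.02 after the GC and length correction. Leaving out 1 library gave -0.07 to 0.24 for Hoxa10, -0.11 to 0.55 for Hoxc11, -0.20 to 0.26 for Hoxd9, -0.19 to 0.51 for Hoxd10, -0.37 to 0.01 for Hoxd11, -0.06 to 0.67 for Six2, -0.34 to 0.42 for Lrp2 and -0.78 to 0.42 for Dlk1. Dlk1 was -0.07 with library size only and -0.17 with limma, and Lrp2 0.11 after the GC and length correction and -0.72 with a term for Xist. The cause of these changes was not tested. Sag (4.33) and Tmed5 (1.07) were no longer called after the GC and length correction. Meg3 was called with library size only (-1.59), DESeq2 (-1.50) and all 12 libraries (-1.49). Scaling by library size alone moved the median of all genes from 0.01 to -0.08. No paired analysis was possible because the library numbers of AkCh and AhCk are not shared. Rows of under 3 counts per library give no direction at this depth.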
